A study of Homo sapiens with 4 samples.

Results

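The 39 HOX genes were followed in RNA recovered with SIRT7, a nuclear and nucleolar deacylase, and in total RNA of the same cells. They were taken as every gene of the deposited table of 23615 genes whose name is HOX, a cluster letter from A to D and a number, and all 39 were found. The cells were HEK293T, a human embryonic kidney line, with stable expression of Flag-tagged SIRT7, so the control RNA comes from cells that carry the transgene too. In the 2 RIP (RNA immunoprecipitation) libraries, Flag-SIRT7 was pulled down from lysate with an anti-Flag gel and its RNA was freed with proteinase K. The 2 input libraries hold total cellular RNA, and ribosomal RNA was removed from both kinds. Nothing in the labels states that replicates are separate cultures, so p-values cover only the spread between these libraries, which may be technical. A mock pull-down was not analysed here, and RNA held by the gel alone would be counted in RIP.

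HOX genes code for homeodomain transcription factors that give cells their position along the head-to-tail axis of the embryo. In humans they lie in 4 clusters, HOXA on chromosome 7, HOXB on chromosome 17, HOXC on chromosome 12 and HOXD on chromosome 2, and genes with the same number in different clusters (a paralog group) descend from 1 ancestral gene. Low numbers lie at the 3′ end of a cluster and are used towards the head, and high numbers lie at the 5′ end and pattern the trunk, limbs and urogenital tract. Cells keep a stable HOX pattern through Polycomb repression and Trithorax/MLL activation. HOX proteins bind DNA with TALE cofactors, the PBX and MEIS proteins.

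RefSeq promoter windows (GRCh38.p14) were found for 20 of the 39 genes. The 250 bases before the start are printed 5′ to 3′ on the gene's strand, with CpG in capitals. They are given for HOXD13 (abundant, and higher in RIP) and for HOXA11 (higher in RIP together with its neighbour HOXA11-AS). They are also given for HOXC4 (window identical to that of HOXC5, which it overlaps in RefSeq) and for HOXB1 (no fragment in any library).
HOXD13, chr2:176092471-176092720, plus strand: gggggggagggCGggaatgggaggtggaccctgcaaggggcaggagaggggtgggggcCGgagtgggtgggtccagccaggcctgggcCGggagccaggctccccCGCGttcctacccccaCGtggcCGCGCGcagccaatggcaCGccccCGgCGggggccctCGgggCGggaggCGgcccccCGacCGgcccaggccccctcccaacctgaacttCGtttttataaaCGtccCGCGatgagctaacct
HOXA11, chr7:27185233-27185482, minus strand: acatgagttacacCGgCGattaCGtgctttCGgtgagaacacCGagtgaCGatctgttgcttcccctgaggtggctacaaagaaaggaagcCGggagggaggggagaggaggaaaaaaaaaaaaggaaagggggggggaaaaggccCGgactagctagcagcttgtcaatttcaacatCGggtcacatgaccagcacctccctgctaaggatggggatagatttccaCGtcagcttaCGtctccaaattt
HOXC4 and HOXC5, chr12:54016638-54016887, plus strand: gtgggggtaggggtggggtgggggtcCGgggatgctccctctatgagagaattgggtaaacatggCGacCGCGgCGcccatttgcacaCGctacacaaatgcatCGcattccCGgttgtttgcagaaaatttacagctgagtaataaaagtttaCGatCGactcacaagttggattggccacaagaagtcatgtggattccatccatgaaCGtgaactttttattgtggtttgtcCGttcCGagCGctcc
HOXB1, chr17:48531012-48531261, minus strand: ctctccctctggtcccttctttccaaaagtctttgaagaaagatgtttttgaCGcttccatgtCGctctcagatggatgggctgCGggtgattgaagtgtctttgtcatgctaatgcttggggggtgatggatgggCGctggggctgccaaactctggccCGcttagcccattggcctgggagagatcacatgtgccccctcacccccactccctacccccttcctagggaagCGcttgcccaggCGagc

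These windows held 21 CpG in HOXD13, 11 in HOXA11, 14 in HOXC4 and 7 in HOXB1. The 27 HOX windows (HOXA3 and HOXA10 have several) ranged from 0 to 40 CpG with a median of 19, against a median of 11 over all 35116 RefSeq windows. The letters TATAAA, on either strand, occurred in 5 of the 27 HOX windows (18.5%) and in 10.7% of all windows. TGATNNAT, a form of the joint PBX and HOX motif, occurred on either strand in 3 HOX windows (11.1%), those of HOXA2, HOXB1 and HOXD11, and in 6.47% of all windows. These are matches of letters, not shown binding sites.

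The libraries held 25655455 and 25998032 fragments on genes in RIP, and 18131602 and 17310753 in input. HOX genes took 0.082% and 0.084% of them in RIP, against 0.112% and 0.116% in input. Levels are given in FPKM (fragments per length of transcript and depth of library, scaled by the authors), which allows genes to be compared within a library. Among the markers of embryonic kidney and of the HEK293 line, PAX2, PAX8, LHX1 and NEFH were under 1 FPKM in all 4 libraries. The kidney progenitor gene SIX2 was at 23.4 and 22.7 FPKM in RIP, against 10.0 and 10.2 in input, and the neurofilament gene NEFL at 6.35 and 6.39, against 12.9 and 13. Kidney-lineage markers were thus present in part in cells labelled as an embryonic kidney line. Of 22 markers of other cell types, 19 were below 1 FPKM in both input libraries, and the list summed to 16.3 and 15.6 FPKM in RIP, against 14.6 and 13.7 in input.

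HEK293T expressed nearly the whole HOX set. In input 35 of 39 HOX genes reached 1 FPKM in both libraries, against 50.4% of all genes, and the count was 32 at a threshold of 2 FPKM. HOXB9, a trunk and urogenital paralog, was the most abundant, with 54.4 and 60.7 FPKM in input. HOXA10, which patterns the reproductive tract and hindlimb, followed with 37.2 and 44.0 FPKM, ahead of HOXA5, HOXD13, HOXA9 and HOXD11. The input ranges of HOXA5 (31.6 and 33.5 FPKM), HOXD13 (31.8 and 31.0) and HOXA9 (27.6 and 32.3) overlapped, so their order is not resolved.

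Median levels in input were higher in the 5′ paralog groups than in the 3′ ones, a difference that was not tested. The median input level was 12.8 FPKM over the 16 genes of paralog groups 9 to 13, against 3.93 FPKM over the 23 genes of groups 1 to 8. The Spearman rho of input level with paralog number was 0.43 across 36 genes, which share libraries and neighbouring DNA. HOXA had every one of its 11 genes at or above 1 FPKM in both input libraries and summed to 156.1 and 170.9 FPKM. HOXB summed to 110.2 and 118.5 FPKM, HOXD to 98.6 and 94.9, and HOXC to 58.7 and 69.5.

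**Figure D1:**
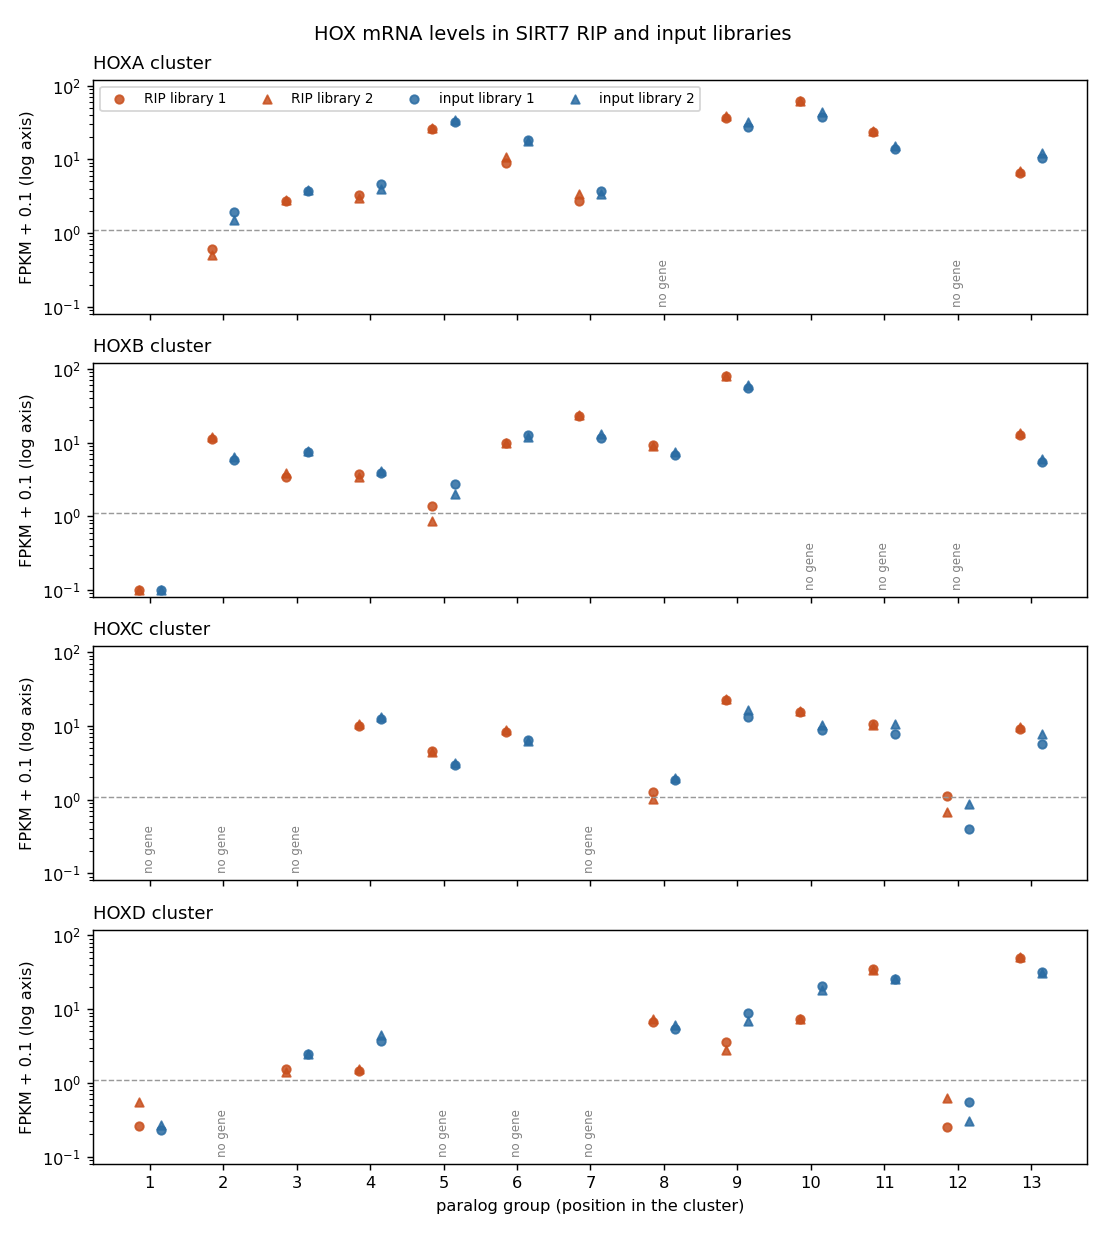
FPKM plus 0.1 on a log axis for the HOX genes by paralog group, 1 panel a cluster, with both RIP libraries left of both input libraries and a dashed line at 1 FPKM; 1 gene is not shown. HOXB9 stands highest in input at 54.4 and 60.7 FPKM, and HOXB1, HOXC12, HOXD1 and HOXD12 lie below the line in input.

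Of the 4 genes below the threshold, HOXB1 and HOXD1 lie at the 3′ end of their clusters and HOXC12 and HOXD12 next to the 5′ end. HOXB1, a hindbrain gene, had 0 fragments in every library, which allows up to 3 fragments in each. HOXD1 had 6 and 17 fragments in RIP, against 6 and 7 in input, and HOXD12 had 2 and 7, against 7 and 3. These 3 genes did not pass the filter on low counts. HOXC12 passed it with 14 and 8 fragments in RIP, against 5 and 12 in input, and its groups overlapped (log2 fold change 0.55, edgeR adjusted p = 0.3751).

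HOX mRNAs were split evenly between RIP and input. Of 36 tested genes 16 rose in RIP, 16 fell and 4 passed neither side of edgeR's quasi-likelihood test (Benjamini-Hochberg adjusted p under 0.05 over all 14555 tested genes). Over all tested genes 38.0% were higher and 39.7% lower, so the HOX shares lie near the background. The median log2 fold change (RIP over input) was 0.0078 for HOX genes and -0.03 for all tested genes. The HOX median was 0.39 without input library 2, 0.092 without RIP library 1, 0.051 without RIP library 2 and -0.03 without input library 1, and 0.11 with no count filter. At the larger fold, 1 HOX gene rose at least 2-fold and 6 fell at least 2-fold, against 17.5% and 19.1% of all tested genes. FPKM values did not overlap between groups for 34 of the 36 genes: both RIP libraries lay above input for 16 and below it for 18, against 44.5% and 44.4% of tested genes. Bulk libraries cannot tell fewer cells with an mRNA from less of it in each cell.

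These directions are relative to TMM scaling, which fixes the middle of all genes near 0. A replicate block left 16 HOX genes higher and 16 lower (38.3% and 40.3% of all tested genes). With library totals as the scale, the median of all tested genes was -0.76 and that of HOX genes -0.72, with 1 HOX gene higher and 25 lower (17.0% and 65.5% of all tested genes). HOXB13 was higher and all 16 falling genes were lower on both scales.

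In the HOXA cluster the genes from HOXA2 to HOXA6 fell, those from HOXA9 to HOXA11 rose, and HOXA13 fell again. HOXA2, which patterns the second pharyngeal arch, showed the largest fall of any HOX gene, with 0.506 and 0.411 FPKM in RIP against 1.83 and 1.39 in input (log2 fold change -1.82, SE 0.307, edgeR adjusted p = 5.485e-05), at 14 to 74 fragments a library. HOXA3, a gene of the pharyngeal organs, was at 2.64 and 2.71 FPKM in RIP, against 3.67 and 3.78 in input (log2 fold change -0.50). For both genes the RIP libraries lay below both input libraries. HOXA4 was at 3.14 and 2.85 FPKM in RIP, against 4.56 and 3.86 in input (-0.51), a call that was lost without RIP library 2 (edgeR adjusted p = 0.06018) and without input library 1 (0.1102).

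HOXA5, needed for lung development and among the 3 most abundant HOXA genes in input, fell, with 25.4 and 26.5 FPKM in RIP against 31.6 and 33.5 in input (log2 fold change -0.35, SE 0.0794, edgeR adjusted p = 0.0009439). HOXA6 was at 8.68 and 10.6 FPKM in RIP, against 18.3 and 17.8 in input (-0.93). HOXA7 had 2.64 and 3.29 FPKM in RIP, against 3.60 and 3.30 in input, and did not pass the test (log2 fold change -0.24, edgeR adjusted p = 0.2032).

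HOXA9, known for its part in leukaemia with its cofactor MEIS1, was at 35.7 and 38.9 FPKM in RIP, against 27.6 and 32.3 in input (log2 fold change 0.30, SE 0.0837, edgeR adjusted p = 0.004268), a call lost without RIP library 2 (adjusted p = 0.0531). HOXA10 had 61.0 and 61.4 FPKM in RIP, against 37.2 and 44.0 in input (log2 fold change 0.59, SE 0.0791, edgeR adjusted p = 4.674e-06). HOXA11, a kidney and limb gene, had 23.0 and 24.0 FPKM in RIP, against 13.9 and 15.1 in input (0.68, SE 0.0793, edgeR adjusted p = 9.725e-07). All 3 lay above input in both RIP libraries. HOXA13, a gene of the digits and genital tract, lay below it, with 6.34 and 6.81 FPKM against 10.3 and 12.1 (-0.78, edgeR adjusted p = 4.126e-06).

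The HOXB cluster held the largest rise. HOXB13, a prostate and tail-bud gene that lies apart from the rest of its cluster, had 12.6 and 13.3 FPKM in RIP, against 5.39 and 5.95 in input (2.26-fold, log2 fold change 1.18, SE 0.0922, edgeR adjusted p = 9.37e-09). HOXB9 had 79.6 and 79.4 FPKM in RIP, against 54.4 and 60.7 in input (0.45, SE 0.0707, edgeR adjusted p = 2.845e-05). HOXB7 had 22.6 and 23.8 FPKM in RIP, against 11.6 and 12.9 in input (0.91, SE 0.0972, edgeR adjusted p = 3.898e-07). In all 3 the RIP libraries stood above input without overlap. HOXB2, a hindbrain gene at the other end, did so too, with 11.2 and 11.7 FPKM against 5.66 and 6.29 (0.93, SE 0.117, edgeR adjusted p = 2.499e-06). HOXB8 was at 9.07 and 8.79 FPKM, against 6.76 and 7.41 (0.32), and its call was lost without RIP library 1 (edgeR adjusted p = 0.06739) and without input library 1 (0.08465).

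Between these lay genes that fell or did not pass. HOXB3 was at 3.30 and 3.83 FPKM in RIP, against 7.40 and 7.67 in input (log2 fold change -1.10). HOXB5 was at 1.30 and 0.772 FPKM, against 2.67 and 1.93 (-1.17, SE 0.270, edgeR adjusted p = 0.0009963), with 27 to 111 fragments a library. HOXB6 had 9.91 and 9.70 FPKM in RIP, against 12.6 and 11.7 in input (-0.32, SE 0.104, edgeR adjusted p = 0.009706). The HOXB6 call was lost without RIP library 2 (adjusted p = 0.05015) and without input library 1 (0.06427). HOXB4, used to expand blood stem cells, had 3.67 and 3.34 FPKM in RIP, against 3.72 and 4.0 in input (-0.16, edgeR adjusted p = 0.3358).

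In the HOXC cluster 5 of 9 tested genes rose and 2 fell, against 38.0% and 39.7% of all tested genes. HOXC9, a thoracic and motor neuron gene, was the most abundant, with 22.6 and 23.0 FPKM in RIP against 13.1 and 16.5 in input (log2 fold change 0.61, SE 0.103, edgeR adjusted p = 6.044e-05). HOXC10, its lumbar neighbour, had 15.3 and 15.6 FPKM in RIP, against 8.76 and 10.1 in input (0.70, SE 0.0968, edgeR adjusted p = 7.614e-06). HOXC13, a hair and nail gene, had 9.01 and 9.41 FPKM, against 5.51 and 7.57 (0.48). These RIP values lay above both input libraries. HOXC11 was at 10.4 and 10.2 FPKM in RIP, against 7.67 and 10.4 in input, so the groups overlapped (0.17, edgeR adjusted p = 0.2108); without input library 2 it was called higher (log2 fold change 0.41, adjusted p = 0.003942). HOXC8 was at 1.17 and 0.910 FPKM in RIP, against 1.77 and 1.86 in input (-0.82).

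HOXC4, HOXC5 and HOXC6 overlap one another in RefSeq. They are 3 of the 5 HOX genes, with HOXA9 and HOXA10, whose deposited fragments were not whole numbers, as when fragments are divided between genes or sites. HOXC4 was at 9.81 and 10.6 FPKM in RIP, against 12.4 and 13.2 in input (log2 fold change -0.27, SE 0.0946, edgeR adjusted p = 0.01598). HOXC5 was at 4.49 and 4.34 FPKM, against 2.87 and 3.0 (0.57), and HOXC6 at 8.06 and 8.67, against 6.27 and 6.13 (0.41). The part of this division in their opposite directions was not tested. HOXC4 also lost its call without RIP library 1 (adjusted p = 0.1053) and without input library 2 (0.05882).

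In the HOXD cluster 3 of 7 tested genes rose and 4 fell, against 38.0% and 39.7% of all tested genes. HOXD4 and HOXD8, HOXD8 and HOXD9, and HOXD10 and HOXD11 were neighbours called in opposite directions. HOXD13, a gene of digit formation, had 49.2 and 50.6 FPKM in RIP, against 31.8 and 31.0 in input (log2 fold change 0.65, SE 0.0706, edgeR adjusted p = 4.623e-07). HOXD11, which with HOXA11 is needed for kidney and forearm, had 34.8 and 33.5 FPKM in RIP, against 25.8 and 25.9 in input (0.38, SE 0.0807, edgeR adjusted p = 0.0004423). HOXD10, next to it, went the other way, with 7.36 and 7.22 FPKM in RIP against 20.5 and 18.3 in input (-1.43, SE 0.103, edgeR adjusted p = 3.387e-09). HOXD9 did likewise, with 3.49 and 2.69 FPKM against 8.75 and 6.78 (-1.35, SE 0.166, edgeR adjusted p = 1.917e-06). HOXD8 was again above input in both RIP libraries, at 6.64 and 7.23 FPKM against 5.27 and 5.93 (0.40). At the 3′ end HOXD4 had 1.33 and 1.44 FPKM in RIP, against 3.55 and 4.31 in input (-1.52, SE 0.225, edgeR adjusted p = 1.513e-05), and HOXD3 had 1.46 and 1.30, against 2.35 and 2.33 (-0.78). Both lay below input without overlap.

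**Figure D2:**
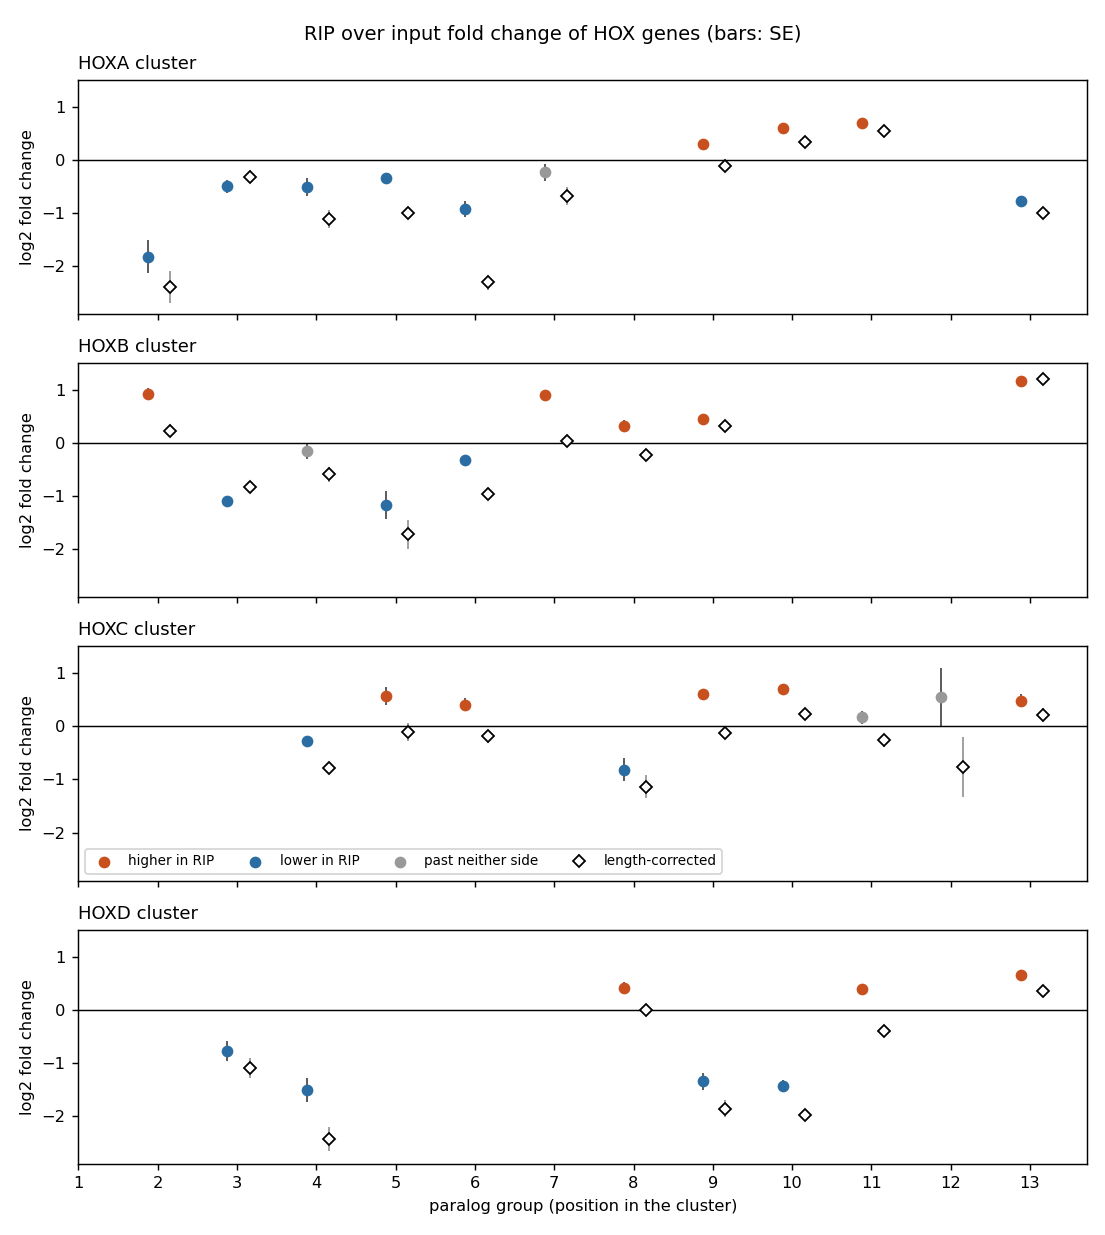
Log2 fold change, RIP over input, of the tested HOX genes by paralog group, 1 panel a cluster; filled points are coloured by the edgeR call, open diamonds are length-corrected values and bars are SE; 1 gene is not shown. HOXB13 stands highest at 1.18 and HOXA2 lowest at -1.82, and HOXD9 and HOXD10 lie below 0 between HOXD8 and HOXD11 above it.

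By position, 10 of the 15 tested genes of paralog groups 9 to 13 rose and 3 fell (HOXA13, HOXD9 and HOXD10), with a median log2 fold change of 0.48. Of the 21 tested genes of groups 1 to 8, 6 rose (HOXB2, HOXB7, HOXB8, HOXC5, HOXC6 and HOXD8) and 13 fell, with a median of -0.35. Over all tested genes 38.0% were higher and 39.7% lower. The Spearman rho of fold change with paralog number was 0.44 across the 36 genes. The cut between groups 8 and 9 was chosen with values known, and the difference between the gene groups was not tested, since genes of 1 cluster are no replicates. With library totals the counts were 1 higher and 7 lower for groups 9 to 13 and 0 higher and 18 lower for groups 1 to 8. The shares of all tested genes were then 17.0% higher and 65.5% lower.

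Some paralog groups held calls in both directions. With TMM this was so for 7 of 11 paralog groups with at least 2 tested members. This count depends on the setting: it was 1 with library totals (group 13) and 4 with length offsets (groups 9, 10, 11 and 13). Over all tested genes 38.0% were higher and 39.7% lower with TMM, 17.0% and 65.5% with library totals, and 33.6% and 34.6% with length offsets. The number of mixed groups that these shares alone would give was not computed. In group 13 with TMM HOXB13, HOXC13 and HOXD13 rose and HOXA13 fell. In groups 9 and 10 the HOXD member fell and the others rose. Group 3 fell in all 3 clusters that have it, and in group 4 HOXA4, HOXC4 and HOXD4 fell while HOXB4 did not pass. In groups 7 and 11 there were higher calls and no lower one. Along the chromosomes, 9 of 32 neighbouring pairs of tested genes were called in opposite directions, 16 in the same direction, and 7 had a member that passed neither side. The number of opposite pairs that the shares of all tested genes alone would give was not computed either. The most distant neighbours were HOXB2 and HOXB3, whose log2 fold changes differed by 2.02.

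Relative to tested genes of like length, HOX genes had a lower median in RIP. Across all tested genes, shorter genes tended to be higher in RIP and longer ones lower (Spearman rho of fold change with effective length -0.60 over 14555 genes). Effective length was read from the table as scaled fragments over FPKM. HOX genes were mostly short, 33 of 36 below the median tested gene, with a median of 0.641 times its length and a range of 0.224 to 1.27. Within the HOX genes the rho was 0.04, over a range of lengths far narrower than the 0.00969 to 34.1 of all tested genes. Over so narrow a range it cannot tell whether HOX genes follow the trend. After length correction the rho within the HOX genes was 0.36 (0.03 over all tested genes). Taking the trend of all genes out with offsets, which left their median at -0.03, moved the HOX median to -0.50. Then 5 HOX genes were higher and 19 lower, against 33.6% and 34.6% of all tested genes. The offsets depend on length alone and lower the values of short genes, whether or not these follow the trend. Most HOX genes are short, so their median moves down with the offsets. No cause of the lower median or of the rho of 0.36 was tested.

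The 5 genes that stayed higher after length correction were HOXA10 (log2 fold change 0.33), HOXA11 (0.54), HOXB9 (0.33), HOXB13 (1.22, edgeR adjusted p = 1.833e-08) and HOXD13 (0.35). Their effective lengths were, in this order, 0.824, 0.913, 0.931, 1.06 and 0.792 times the median gene. Every other rising HOX gene was shorter than these, save HOXC13 (0.817), which lost its call. All 5 belong to paralog groups 9 to 13, where 4 genes were lower and 6 passed neither side. Length and position were not told apart here. In groups 1 to 8, none of 21 was higher, 15 were lower and 6 passed neither side. HOXD11 turned to -0.41 (edgeR adjusted p = 0.000371), the other 10 rising genes lost their calls, and all 16 falling genes stayed lower. HOXA7 and HOXB4 became lower calls. The largest corrected falls were those of HOXD4 (-2.44), HOXA2 (-2.40) and HOXA6 (-2.31). HOXA6 had the shortest effective length of the tested HOX genes, 0.224 times the median gene.

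**Figure D3:**
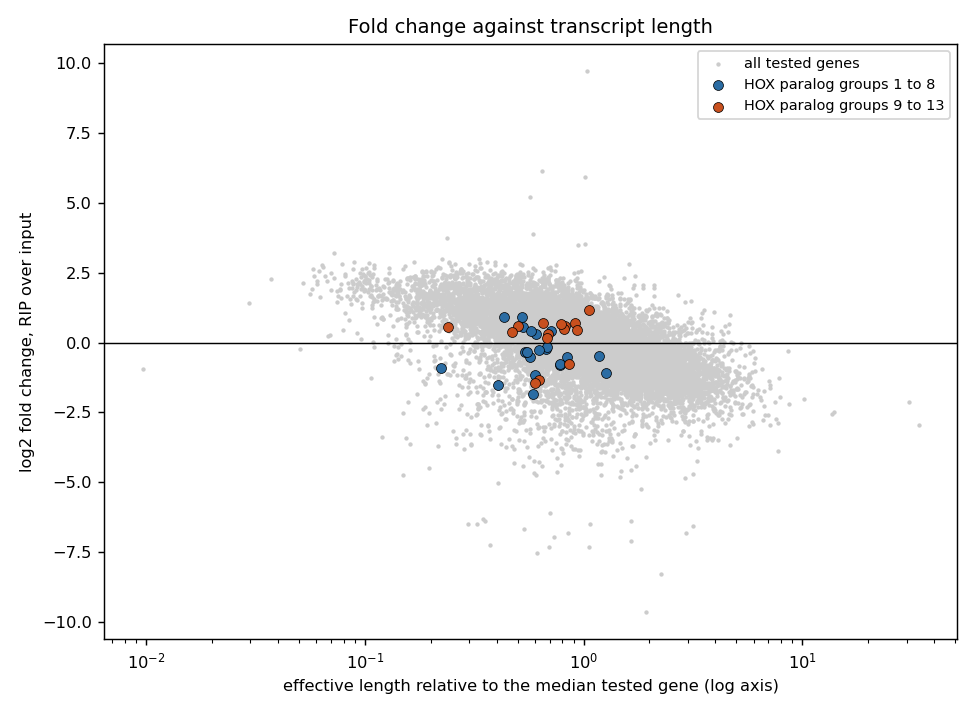
Log2 fold change, RIP over input, against effective length relative to the median tested gene (log axis) for all 14555 tested genes in grey and the 36 HOX genes in colour by paralog group. HOX genes lie between 0.224 and 1.27 times the median length, and their median log2 fold change after length correction was -0.50.

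Level in input went with fold change to a similar degree in HOX genes and elsewhere: the Spearman rho was 0.27 over the 36 HOX genes and 0.32 over all 14555 tested genes, with input libraries shared by both measures. Of the 14 tested HOX genes with a mean input level of at least 10 FPKM, 8 rose and 6 fell. Of the 22 below it, 8 rose, 10 fell and 4 passed neither side. Over all tested genes, of any level, 38.0% were higher and 39.7% lower.

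Overlapping transcripts limit some of these values. In RefSeq, spans of 23 of the 39 HOX genes overlap another gene, and 19 overlap a long non-coding RNA. The libraries were strand-specific, but the strand setting of the counting is not given in the sources used here, so a gene and its antisense partner cannot be told apart. HOXA11, HOXB7, HOXB9, HOXB13, HOXD9, HOXD10, HOXD11 and HOXD13 are among the genes with no overlap in RefSeq. The deposited values of HOXD8 imply transcripts 1.08 times as long in RIP as in input, and those of HOXC4 1.05 times; the others differed by at most 1.02 times.

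Of 21 listed non-coding and antisense genes of the clusters with values, 14 were tested, and 7 were higher and 2 lower, against 38.0% and 39.7% of all tested genes (medians of 0.54 for the list and -0.03 for all tested genes). With library totals 5 were higher and 6 lower (median -0.19), against 17.0% and 65.5% of all tested genes, so the balance of calls depends on the scale. HOXA11-AS, the antisense neighbour of HOXA11, rose most, with 42.1 and 38.2 FPKM in RIP against 11.5 and 11.5 in input (3.45-fold, log2 fold change 1.78, SE 0.0899, edgeR adjusted p = 5.278e-11). HOTAIRM1, which lies at the 3′ end of the HOXA cluster and is known from myeloid cells, had 45.3 and 40.3 FPKM in RIP, against 20 and 21.9 in input (2.02-fold, edgeR adjusted p = 8.704e-08), while its neighbour HOXA2 fell. The others that rose were HOXB-AS5 (log2 fold change 1.53, beside HOXB13), HOXA-AS4 (1.32), HOXD-AS2 (1.21), HOXC-AS5 (1.21) and HOXB-AS3 (0.65).

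HOTAIR, a HOXC transcript known from work on Polycomb targeting of HOXD, fell, with 4.41 and 4.26 FPKM in RIP against 5.71 and 5.78 in input (log2 fold change -0.42, edgeR adjusted p = 0.004316). HOTTIP, HOXA-AS3 and HOXD-AS1 did not pass the test. The read-through gene HOXA10-HOXA9, which overlaps HOXA9 and HOXA10 in RefSeq, had 0 and 8 fragments in RIP, against 13 and 16 in input. It was called lower (-1.64, edgeR adjusted p = 0.04882), but not with DESeq2 (adjusted p = 0.1559) or without a count filter (edgeR adjusted p = 0.1041). Its log2 fold change was -0.67 without RIP library 1 and -1.43 without input library 2. These RNAs are short in the table too. After length correction HOXA11-AS was the 1 gene higher (1.06) and 3 were lower, against 33.6% and 34.6% of all tested genes. HOXB-AS3 was among the lower ones at -1.17, while HOTAIRM1 stood at -0.15 (edgeR adjusted p = 0.1873). The microRNA genes of the clusters (MIR10A, MIR10B, MIR196A1, MIR196A2, MIR196B and MIR615) had no fragment in any library.

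TALE genes, among them the PBX and MEIS cofactors, and Polycomb and Trithorax genes were called in both directions. Of 11 listed TALE genes 3 rose and 4 fell, against 38.0% and 39.7% of all tested genes. MEIS3 rose 4.59-fold, with 20.7 and 20 FPKM in RIP against 4.13 and 4.56 in input (edgeR adjusted p = 1.657e-11), and TGIF2 rose 1.27-fold (25.1 and 25.0 FPKM against 19.5 and 19.5). PBX2 was at 27.5 and 26.2 FPKM in RIP, against 25.8 and 24.4 in input, and did not pass (adjusted p = 0.3318). TGIF2 turned to -0.39 with library totals, where 2 TALE genes were higher and 9 lower, against 17.0% and 65.5% of all tested genes.

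Of 33 Polycomb genes 13 rose and 16 fell (median log2 fold change -0.16), against 38.0% and 39.7% of all tested genes. PHF19 rose 2.61-fold by fragments (1684 and 1560 in RIP, against 745 and 669 in input). Its FPKM were further apart, at 76.9 and 69.4 in RIP, against 17.4 and 19.2 in input, since the deposited values imply a transcript 0.660 times as long in RIP as in input. PHC3 fell, with 0.859 and 0.757 FPKM against 5.05 and 4.40 (-2.57, edgeR adjusted p = 7.793e-12). BMI1 was lower too (-0.49), and RBBP7, the most abundant, did not pass (-0.13, adjusted p = 0.08391). With library totals 3 Polycomb genes were higher and 25 lower, against 17.0% and 65.5% of all tested genes. Of 21 Trithorax and MLL complex genes 4 rose and 14 fell (median -0.72). Their median length was 2.33 times that of all tested genes. After length correction 10 were higher and 5 lower (median 0.26), against 33.6% and 34.6% of all tested genes. With library totals 1 Trithorax or MLL complex gene was higher and 19 were lower. DPY30, a small core subunit, rose 2.99-fold (193 and 206 FPKM in RIP, against 58.9 and 73.1 in input), and MLL3, a very large methyltransferase, was lower (-1.83). Both lost their calls after length correction (edgeR adjusted p = 0.06461 and 0.2683). PSIP1 did not pass (adjusted p = 0.8682).

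**Figure D4:**
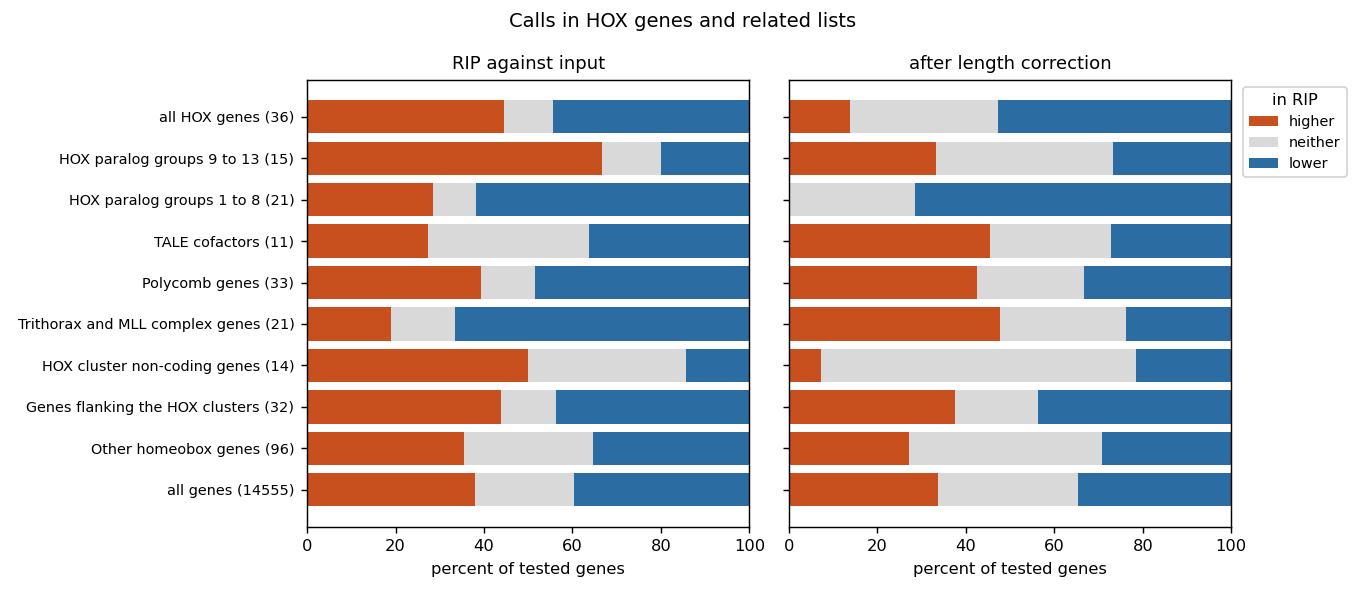
Percent of tested genes higher, neither and lower in RIP, before (left) and after (right) length correction, for HOX genes, their paralog groups and related lists, with the number tested in brackets. HOX groups 1 to 8 have no higher call after correction, and 15 of 21 are lower, against 34.6% of all tested genes.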

How the data were processed

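The 4 libraries of HEK293T cells with Flag-SIRT7 were 2 RIP and 2 input. Per the submitters' processing notes, the tools were Cuffdiff 2.2.1, TopHat2 2.0.13, Bowtie2 2.2.6 and cutadapt 1.5, on hg19; the annotation is not given in the sources used here. Fragments per gene are expected counts that the authors deposited (98.08% whole, to within 1e-06), the deposited FPKM are per length of transcript and depth of library, and the deposited scaled signal is the fragments over 1 factor per library. The table numbers libraries from 0, taken as replicate 1 of the labels. None of the HOX entries was marked as failed. Rounded counts that passed filterByExpr went into edgeR 4.0.16 (R 4.3.3, with TMM, glmQLFit, glmQLFTest, group as the only term, Benjamini-Hochberg at 0.05); TMM factors were 0.7768 and 0.776 in RIP, and 1.298 and 1.278 in input. SE is the log2 fold change over the square root of F. The length correction adds a lowess trend as offsets. Alternatives were library totals, DESeq2 1.42.0, no filter, a replicate block, limma 3.58.1 on log2(FPKM + 1) and log2(FPKM + 0.1), dropping the 10 most abundant genes, and leaving out each library. Fits were tested on simulated data. All 4 libraries were kept, since replicates differed beyond counting noise (chi-square 3.40 per gene in RIP and 6.17 in input). With 2 pairs, shared replicate numbers were not taken to pair libraries (correlation of deviations 0.017). Members, lists and tests were chosen with earlier results of these data known. A few genes that enter the counts are not reported here by name. Full statistics are given for the 3 most abundant tested genes of each cluster and the 5 largest changes in each direction, and from each list for the 2 most abundant and the largest change each way. List names are those of the table; LOC100133091, on the list of non-coding genes, lies outside the clusters in RefSeq.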

Additional observations from a re-analysis of the deposited data

How the results depend on the processing

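With library totals, 1 HOX gene was higher and 25 were lower, and the HOX median log2 fold change was -0.72. The related lists gave 33 higher and 140 lower calls (75 and 84 with TMM). Over all tested genes 17.0% were higher and 65.5% lower with library totals (38.0% and 39.7% with TMM). Length offsets gave 5 higher HOX calls and a median of -0.50. Without a count filter the median was 0.11. It lies in a gap between genes that fell and rose, so it moves with the number of genes on each side. Leaving out 1 library gave 15 to 17 higher and 14 to 15 lower HOX calls, and medians of -0.03 to 0.39. Of the genes named in the report and called in at least 1 of the settings compared, those whose log2 fold change turned negative with library totals were HOXA9 (-0.43), HOXA10 (-0.14), HOXA11 (-0.046), HOXB8 (-0.41), HOXB9 (-0.28), HOXC5 (-0.16), HOXC6 (-0.32), HOXC9 (-0.12), HOXC10 (-0.035), HOXC11 (-0.56), HOXC13 (-0.25), HOXD8 (-0.33), HOXD11 (-0.35), HOXD13 (-0.081), PBX2 (-0.65), TGIF2 (-0.39) and HOXB-AS3 (-0.078). Those that did so with length offsets were HOXA9 (-0.12), HOXB8 (-0.23), HOXC5 (-0.11), HOXC6 (-0.19), HOXC9 (-0.13), HOXD8 (-0.0014), HOXD11 (-0.41), HOTAIRM1 (-0.15), HOXB-AS3 (-1.17), HOXB-AS5 (-0.18) and HOXD-AS2 (-0.30). HOXC12, called in none of these settings, turned too (-0.17 with library totals and -0.77 with length offsets), as did HOTTIP with library totals (-0.30) and HOXC11, called in neither setting, with length offsets (-0.26). The cause of these turns was not tested beyond the scale and the length trend that each setting takes out. With DESeq2 the HOX calls of HOXA4, HOXB6, HOXB8 and HOXC4 were lost. With the replicate number as a block, 16 HOX genes were higher and 16 lower, and no HOX call changed; limma with either pseudocount and dropping the 10 most abundant genes changed none either. Depth limits HOXA2, HOXB5, HOXC12 and HOXD4, with few fragments a library.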

Other observations

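Of 137 listed homeobox genes outside the clusters, 96 were tested, and 34 were higher and 34 lower in RIP (median log2 fold change 0.03). Over all tested genes 38.0% were higher and 39.7% lower. With library totals 16 were higher and 59 lower, against 17.0% and 65.5% of all tested genes, so the balance of calls depends on the scale. NKX2-5, a heart gene, rose 3.22-fold, with 60.3 and 58.9 FPKM in RIP against 15.7 and 20.8 in input (edgeR adjusted p = 4.76e-10). VAX2, an eye gene, rose 4.11-fold, with 17.9 and 18.3 FPKM against 4.32 and 4.37 (edgeR adjusted p = 7.917e-10). NANOG, a pluripotency gene, was called lower with 1 and 2 fragments in RIP, against 16 and 14 in input (log2 fold change -3.04, edgeR adjusted p = 0.00078).

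Genes near the HOX clusters showed 14 higher and 14 lower calls among 32 tested, against 38.0% and 39.7% of all tested genes. With library totals they showed 6 and 22, against 17.0% and 65.5%. The chromatin protein gene CBX5 fell, with 8.84 and 9.28 FPKM in RIP against 31.3 and 26.5 in input (log2 fold change -1.69, edgeR adjusted p = 6.015e-11). TARBP2, a partner of Dicer, rose 3.64-fold, with 99.4 and 102 FPKM against 26.1 and 28.1. ATP5G2, an ATP synthase subunit gene, rose 3.48-fold and HNRNPA1 1.80-fold; HNRNPA1 lost its call with library totals (edgeR adjusted p = 0.09345).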
